A study of Sus scrofa with 2 samples.

Results

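The insulin-like growth factor (IGF) family was examined in the brain and in the liver of Rongchang pigs (Sus scrofa, a Chinese domestic breed). A total of 10 genes were taken by their protein names: the ligands IGF1 and IGF2, the binding proteins IGFBP1, IGFBP2, IGFBP3 and IGFBP5, the acid-labile subunit IGFALS, and the receptors IGF1R, IGF2R and GHR. These 10 genes occupied 15 of the 21817 rows of the expression table, which gave 21415 genes once rows of a gene were summed. RNA of frozen tissue was sequenced from 1 library of each tissue, with 23796843 counts in the brain library and 31724498 in the liver library. Age, sex, brain region and the number of animals behind each library are not stated in the sources used here, so no difference below has a replicate check and none was tested. All intervals are 95% intervals for counting error alone.

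IGF1 and IGF2 are small secreted proteins related to insulin, and both signal mainly through the receptor tyrosine kinase IGF1R. The mannose-6-phosphate receptor IGF2R instead takes IGF2 into the cell for breakdown. Growth hormone acts on the liver through GHR to raise IGF1, and most circulating IGF travels with IGFBP3 or IGFBP5 and IGFALS in a ternary complex. The other binding proteins carry smaller amounts of ligand and limit or prolong its action in tissues. In rodents, IGF2 is the fetal form in liver, whereas IGF1 from liver takes over after birth.

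Levels are given as CPM, counts per 1000000 after scaling the libraries by the trimmed mean of M values (TMM), so that 1 CPM stood for 34.9 counts in brain and 21.6 counts in liver. These levels are not per transcript length, and they are compared only between tissues for the same gene. The log2 ratio, brain over liver, was taken with 1 CPM added to both levels, and a call for 1 tissue needed a ratio of at least 4-fold. Folds of single genes were taken without the added CPM. All 10 genes reached 1 CPM in at least 1 library. In brain, 2 of the 10 were called higher, against 14.6% of the 15559 genes that reached 1 CPM, a share close to that background. In liver, 6 of the 10 were called higher, against 11.3% of all genes. With plain library size in place of TMM it was still 2 in brain, against 24.1% of all genes, and 5 in liver, against 6.02%. With TMM and a limit of 2-fold it was 2 in brain, against 27.5% of all genes, and 7 in liver, against 24.4%. At 8-fold it was 0 in brain, against 8.55%, and 5 in liver, against 5.69%. The median log2 ratio of the 10 genes was -2.80, and that of all genes was 0.02.

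**Figure D1:**
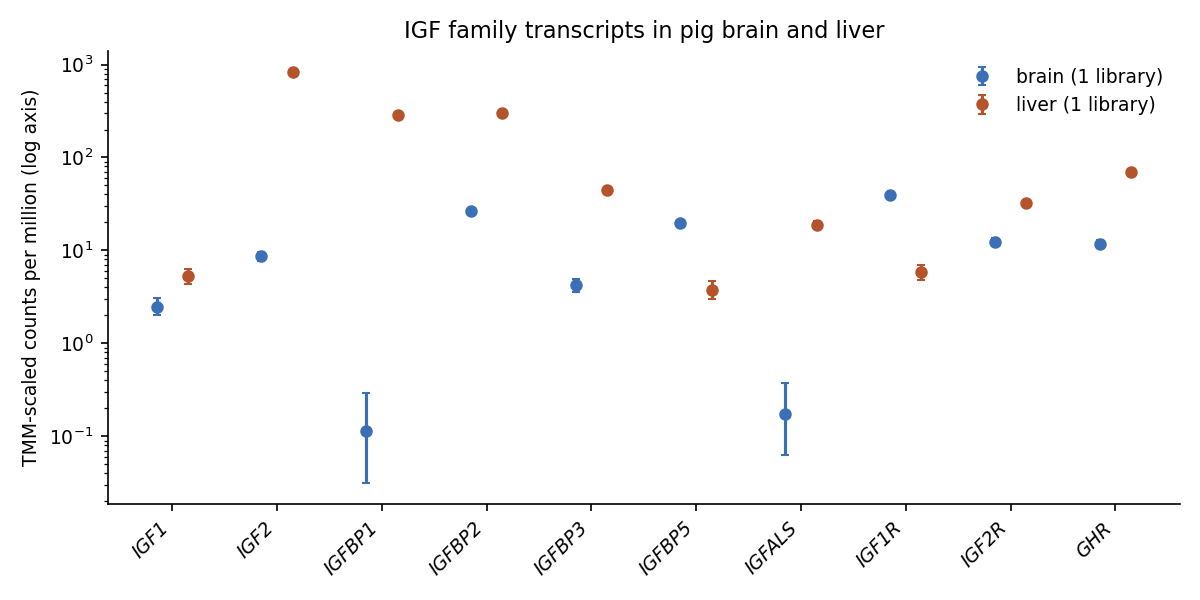
Level of each IGF family gene in brain and liver, in TMM-scaled CPM on a log axis, with 1 point per library and bars for the 95% counting interval. IGF1R and IGFBP5 lie higher in brain, 6 genes lie higher in liver by more than 4-fold, and the points of IGF1 and IGF2R are closer together, those of IGF1 changing order with plain library size.

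The ligands differed in how far they were set toward liver. IGF2 was at 8.64 CPM in brain (302 counts), against 833 CPM in liver (17992 counts). It was thus 96.3-fold higher in liver (86.0 to 108), with a log2 ratio of -6.43, the 191st lowest of all genes. IGF1, the ligand that growth hormone induces, was low in both libraries, at 2.49 CPM in brain (87 counts) and 5.28 CPM in liver (114 counts). Its fold toward liver was 2.12 (1.59 to 2.83), below the 4-fold rule, and its log2 ratio of -0.85 became 0.02 with plain library size. The IGF2 count was 3.47 times the IGF1 count in brain and 158 times in liver. That ratio of counts was 45.5-fold higher in liver (33.2 to 62.0). In this comparison the scaling cancels. The lengths of the transcripts cancel too if both tissues use the same transcript forms, which was not checked. In bulk tissue, fewer cells of a type and less RNA per cell cannot be told apart, for these and all following genes.

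The IGF2 reads came from a pair of table rows, both on scaffolds outside the assembled chromosomes. The row labelled IGF2 had 275 counts in brain and 16629 in liver, a 97.8-fold difference toward liver (86.8 to 111). Its deposited length was 508 bp, against 68390 bp for the IGF1 row, introns included. The ratios of IGF2 to IGF1 counts within a library are therefore not ratios of molecules. The row LOC100622549, annotated as insulin-like growth factor II-like, had 27 counts in brain and 1363 in liver, an 81.6-fold difference (55.9 to 124). The intervals of both rows overlapped, and the second row held 8.94% of the IGF2 counts in brain and 7.58% in liver. The fetal liver markers AFP and GPC3 had a sum of 8.47 CPM in the brain library, against 26551 CPM in the liver library. H19, the third marker of that list and the imprinted neighbour of IGF2 in mammals, had no row, and the part of fetal or neonatal liver in the IGF2 level was not tested. The leptomeninges and the choroid plexus are brain tissues known to make IGF2. The 5 leptomeningeal markers had a sum of 49.1 CPM in the brain library and of 24.7 CPM in the liver library, but they differed in direction. SLC22A6, LUM and SLC6A13 lay higher in brain, at 15.1, 9.93 and 8.93 CPM, against 0.0463, 1.90 and 2.41 CPM in liver. DCN was at 11.8 CPM in both libraries, and ALDH1A2 lay higher in liver, at 3.29 CPM in brain and 8.56 CPM in liver. Of the 6 choroid plexus markers, 5 had a row. Their sum was 20.0 CPM in the brain library and 1748 CPM in the liver library, where TTR and FOLR1 supplied most of the sum. In brain FOLR1 alone supplied 19.1 CPM of it. TTR, the defining transcript of that epithelium, had 15 brain counts (0.429 CPM), CLIC6 and OTX2 were under 1 CPM as well, and AQP1 was at 0 counts. The part of either tissue in the brain level of IGF2 was not tested.

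The binding proteins were divided between the tissues. IGFBP1, which liver secretes and insulin represses, had 4 counts in brain, equal to 0.114 CPM, and 6123 counts in liver, equal to 283 CPM. It was 2475-fold higher in liver (966 to 9087), and its log2 ratio of -8.00 was the 94th lowest of all genes. IGFBP2, a carrier that binds IGF2 and is known from both fetal liver and brain, was at 26.3 CPM in brain (918 counts), against 300.1 CPM in liver (6485 counts), and was 11.4-fold higher in liver (10.7 to 12.3). IGFBP3, the main carrier of the ternary complex, was at 4.21 CPM in brain (147 counts), against 44.9 CPM in liver (970 counts), 10.7-fold higher in liver (8.96 to 12.8). The folds of IGFBP2 and IGFBP3 thus overlapped in their intervals, whereas that of IGFBP1 lay far outside both. In the gene order of the table and of the RefSeq gene list, IGFBP1 and IGFBP3 are direct neighbours, as they are in other mammals. The ratio of IGFBP1 to IGFBP3 counts was 232-fold higher in liver (88.3 to 864).

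IGFBP5, a binding protein of the extracellular matrix that is also known from neurons and glia, was the binding protein of the 10 genes on the brain side. It was at 19.8 CPM in brain (691 counts), against 3.80 CPM in liver (82 counts), 5.21-fold higher in brain (4.14 to 6.63). With 5 CPM instead of 1 CPM added to both levels the log2 ratio was 1.49, below 4-fold, in place of 2.12. This result rests on which rows are counted. The row that bears the symbol IGFBP5 had only 9 counts in brain and 10 in liver, a ratio of 0.557 (0.200 to 1.52), and did not reach 1 CPM in either library. The row next to it, LOC100738836, annotated as IGFBP5-like, had 275 counts in brain and 43 in liver and was 3.96-fold higher in brain (2.86 to 5.59). A further IGFBP5-like row, LOC100622295, had 407 counts in brain and 29 in liver and was 8.68-fold higher in brain (5.95 to 13.1). That row lies beside IGFBP2 on an unplaced scaffold, and in the RefSeq gene list IGFBP5 is likewise the next gene after IGFBP2. Neither LOC number has an entry of its own in that list. IGFBP2 and IGFBP5 are thus neighbours that lay on opposite sides, and the ratio of IGFBP5 to IGFBP2 counts was 59.5-fold higher in brain (46.7 to 76.5), and 99.1-fold when the highest row of each gene was used.

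**Figure D2:**
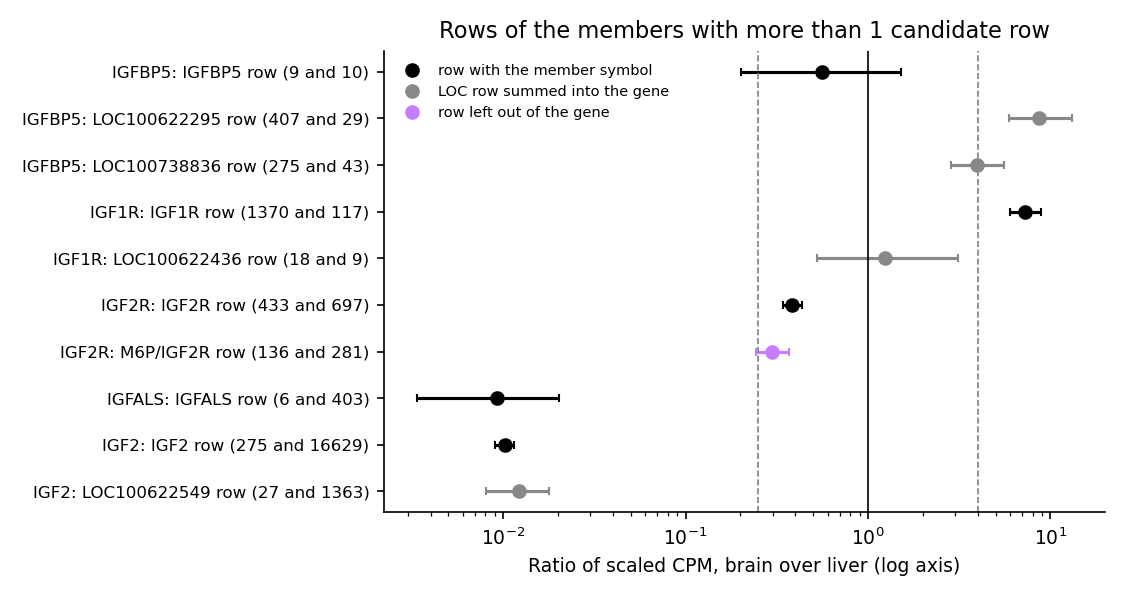
Ratio of scaled CPM, brain over liver, on a log axis for each table row of 5 IGF family genes, with the counts in brain and liver in each label and bars for 95% counting intervals. Dashed lines mark 4-fold, and LOC rows are annotated as like the protein named. The IGF2 rows overlap, whereas the 9 and 10 counts of the IGFBP5-labelled row lie apart from both IGFBP5-like rows. Rows with 0 liver counts, LOC100623509 and LOC100520342, have no finite ratio and are not drawn.

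The make-up of the binding protein pool was then compared within each library, over IGFBP1 to IGFBP6, the family of high-affinity carriers. IGFBP4 and IGFBP6, a carrier cleaved by the protease PAPPA and a carrier with preference for IGF2, were added for this. The pool held 2586 counts in brain and 16650 in liver. IGFBP1 took 0.155% of the pool in brain (0.0422 to 0.396) and 36.8% in liver (36.0 to 37.5). Conversely, IGFBP5 took 26.7% in brain (25.0 to 28.5) and 0.492% in liver (0.392 to 0.611). With the highest row of each gene its shares were 17.7% in brain and 0.175% in liver. IGFBP6 took 19.3% in brain (17.8 to 20.9) and 0.162% in liver (0.107 to 0.236). The shares of the remaining carriers were closer. IGFBP3 took 5.68% in brain (4.82 to 6.65) and 5.83% in liver (5.47 to 6.19), a difference within counting error. IGFBP2 took 35.5% in brain (33.7 to 37.4) and 38.9% in liver (38.2 to 39.7), an order that turned round, to 39.9% in brain and 39.1% in liver, when the highest row of each gene was used. IGFBP4 took 12.6% in brain (11.4 to 14.0) and 17.8% in liver (17.2 to 18.4). The shares do not depend on how the libraries are scaled, but they are shares of counts, not of molecules. They compare a gene between tissues and do not rank genes within a tissue.

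**Figure D3:**
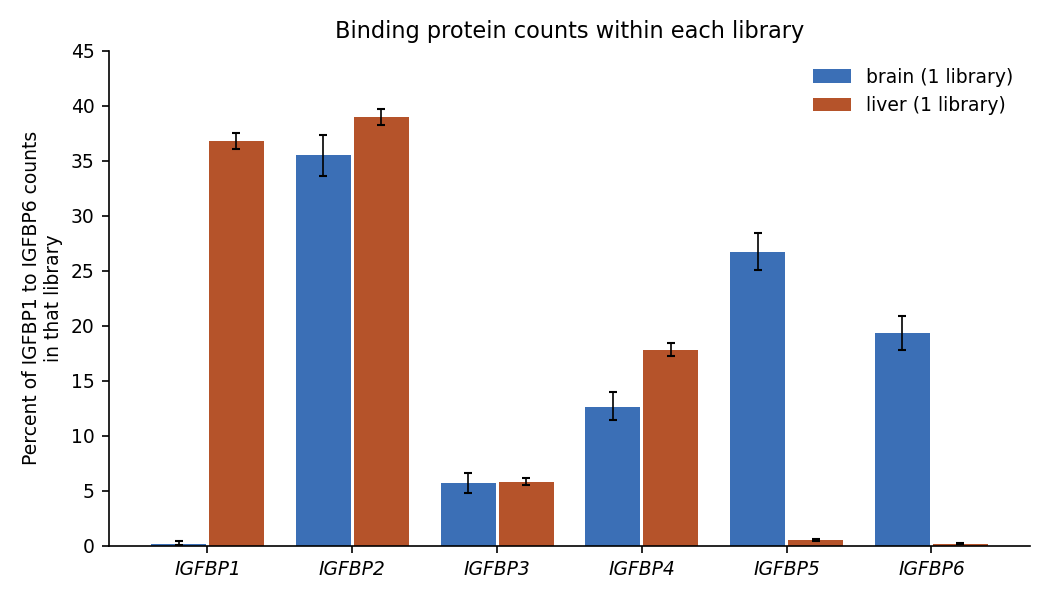
Share of IGFBP1 to IGFBP6 counts taken by each binding protein in the brain library (2586 counts) and in the liver library (16650 counts), in percent, with 95% exact binomial intervals as bars. IGFBP1 takes 0.155% in brain and 36.8% in liver, IGFBP5 and IGFBP6 take 26.7% and 19.3% in brain and under 1% in liver, and the IGFBP3 shares overlap.

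IGFALS, the liver-made subunit that holds the ternary complex in the circulation, had 6 counts in brain, equal to 0.172 CPM, and 403 counts in liver, equal to 18.7 CPM. It was 109-fold higher in liver (49.5 to 298), with a log2 ratio of -4.07. Relative to its partner IGFBP3, the IGFALS count was 10.2-fold higher in liver (4.51 to 28.4). The row LOC100520342, annotated as acid labile subunit-like, had 36 counts in brain and 0 in liver. The RefSeq gene list keeps it as a locus of its own on another chromosome than IGFALS, so it was not summed here. With it, IGFALS would have 42 counts in brain and 403 in liver and would be 15.5-fold higher in liver (11.3 to 21.9) in place of 109-fold, with a log2 ratio of -3.16.

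The receptors lay on different sides. IGF1R, which carries the IGF signal, was at 39.8 CPM in brain (1390 counts), against 5.83 CPM in liver (126 counts), 6.82-fold higher in brain (5.68 to 8.25) with a log2 ratio of 2.58. Its own row supplied 1370 of the counts in brain and 117 in liver, and a pair of rows annotated as IGF1R-like supplied the rest. Of these, LOC100622436 had 18 counts in brain and 9 in liver, a ratio of 1.24 (0.528 to 3.13), and LOC100623509 had 2 in brain and 0 in liver. IGF2R, the clearance receptor, was at 12.4 CPM in brain (433 counts), against 32.3 CPM in liver (697 counts). It was 2.60-fold higher in liver (2.31 to 2.94), below the 4-fold rule, with a log2 ratio of -1.31, and of -0.26 with plain library size. A row labelled M6P/IGF2R, an older name of IGF2R in the RefSeq list, had 136 counts in brain and 281 in liver, and with it the fold was 2.78 (2.50 to 3.09). The ratio of IGF1R to IGF2R counts was 3.21 in brain and 0.181 in liver, and so was 17.8-fold higher in brain (14.2 to 22.3).

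GHR, the receptor of growth hormone, was at 11.8 CPM in brain (414 counts), against 70.1 CPM in liver (1515 counts). It was 5.92-fold higher in liver (5.30 to 6.61) with a log2 ratio of -2.47, and was under 4-fold with plain library size, at -1.41. IGF1 differed less between the tissues than GHR did, and the ratio of IGF1 to GHR counts was 2.79-fold higher in brain (2.04 to 3.80), at 0.210 in brain and 0.0752 in liver. The ratio of IGF1R to GHR counts was 40.4-fold higher in brain (32.5 to 50.3).

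**Figure D4:**
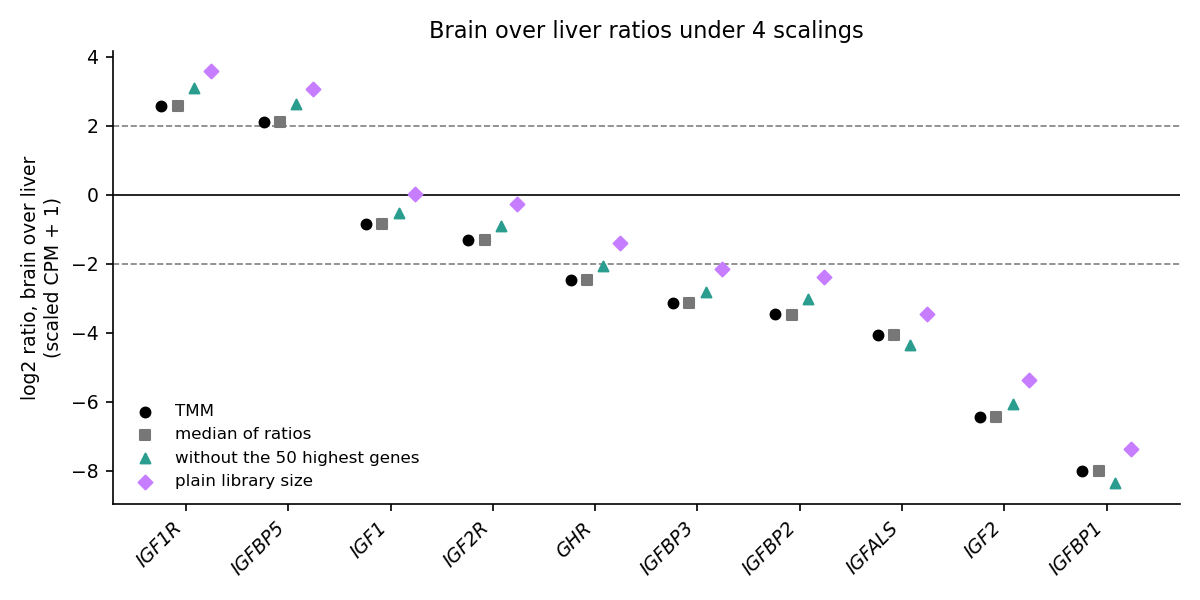
Log2 ratio, brain over liver, of each IGF family gene (scaled CPM with 1 CPM added) under 4 scalings of the libraries, ordered by the TMM ratio, with dashed lines at 4-fold. IGF1R and IGFBP5 stay above 2 and 5 genes stay below -2 under all 4, while GHR moves to -1.41 and IGF1 to 0.02 with plain library size.

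The hepatocyte markers were also counted in the brain library. These markers need not come from liver alone, as TTR is also in the choroid plexus list above. Whether brain cells made any of their brain counts was not tested. The brain count of ALB, the serum albumin gene, was 0.0262% of its liver count (0.0249 to 0.0275). The same percentage was 0.0439 for TTR, 0.0444 for SERPINC1, 0.0473 for both TF and CPS1, and 3.40 for the apolipoprotein gene APOA1. For IGFBP1 it was 0.0653 (0.0178 to 0.167), an interval that holds the values of the first 5 of these markers. At the percentages of these 5, between 1.60 and 2.90 brain counts of IGFBP1 would be expected, against 4 seen. At that of APOA1, 208 would be expected. The 5 markers were grouped by lying inside the IGFBP1 interval, so their nearness to the 4 counts was set by that choice and is no test. The brain count of IGFALS was 1.49% of its liver count (0.543 to 3.27) and that of IGF2 1.68% (1.49 to 1.88), above those 5 markers and below APOA1. The part of liver RNA in the brain counts of any member was not tested. The titles of both libraries carry the same lane and barcode label, and mixing of reads between the libraries was not tested either. The tissues carried their own markers. The 6 hepatocyte markers had a sum of 304 CPM in the brain library, against 377298 CPM in the liver library. The 3 neuronal markers with a row had a sum of 3429 CPM in the brain library, against 6.57 CPM in the liver library.

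Genes of the same pathway outside the 10 were counted in the same way. Of 58 such genes, 52 had a row and 48 reached 1 CPM. Of these 48, 3 were called higher in brain, against 14.6% of all genes, and 6 in liver, a share close to the 11.3% of all genes. The median log2 ratio over these genes was -0.40 with TMM but 0.68 with plain library size. Among the binding proteins, IGFBP6 was at 14.3 CPM in brain (499 counts) and 1.25 CPM in liver (27 counts), with a log2 ratio of 2.76. It was under 4-fold with 5 CPM instead of 1 CPM added to both levels. IGFBP4 was at 9.36 CPM in brain (327 counts) and 137 CPM in liver (2963 counts), with a log2 ratio of -3.74. IGFBP7, a related protein with low affinity for IGF, was at 0.52. HTRA1, a secreted protease that cleaves IGFBP5, was at 168 CPM in brain (5887 counts) and 11.8 CPM in liver (255 counts), with a log2 ratio of 3.73. FURIN, a proprotein convertase, was higher in liver, at 12.1 CPM in brain and 157 CPM in liver (log2 ratio -3.59).

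Downstream of the receptors, 22 of 24 measured genes of insulin and IGF receptor signalling (91.7%) were under 4-fold, against 74.0% of all genes. The kinase MAP2K1 was higher in brain, at 101 CPM in brain and 23.4 CPM in liver (log2 ratio 2.07). With 5 CPM instead of 1 CPM added to both levels it was under 4-fold. The adaptor SHC1 was higher in liver at -2.72, and was at -1.66 with plain library size. MTOR, the kinase of growth control, was at 0.51, and the adaptor GRB2 at 0.35. In growth hormone receptor signalling 7 of 9 genes were under 4-fold, a share close to that of all genes, with the receptor-bound kinase JAK2 at 0.32. STAT3, at -2.60, and the feedback inhibitor SOCS1, at -2.20 with 8 brain counts, were higher in liver, and were at -1.51 and -1.64 with plain library size. The insulin receptor INSR, close relative of IGF1R, was at 9.93 CPM in brain and 12.8 CPM in liver (log2 ratio -0.33, and 0.68 with plain library size). The prolactin receptor PRLR was at -1.40. IGF2BP1, which binds IGF2 mRNA, was higher in liver at -2.85 (-1.98 by plain library size), while its relative IGF2BP3 had a ratio of -0.07 (0.93 by plain library size). INS, GHRHR, IRS2, AKT2, IGF2BP2 and H19 had no row under those names.

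**Figure D5:**
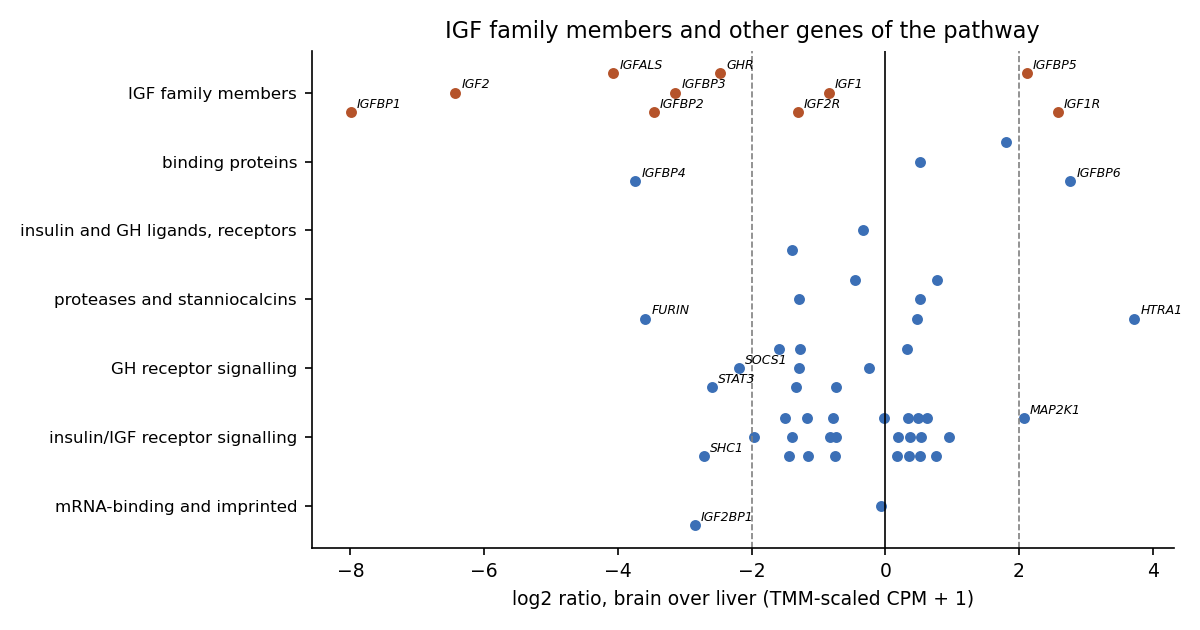
Log2 ratio, brain over liver (TMM-scaled CPM with 1 CPM added), of the 10 IGF family genes in the top row and of 48 other genes of the pathway by group below, with dashed lines at 4-fold and vertical offsets for legibility only. Of the 10 genes 8 lie beyond a dashed line, and of the 48 other genes 9 do, against 26.0% of all genes.

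The genes with a symbol that lay closest to the extreme members in the plane of log2 brain and liver level were sought over these 2 libraries. Nearest to IGFBP1 were FTCD (0.143 CPM in brain, 274 CPM in liver), UPB1 (0.0859 and 305) and MTTP (0.200 and 269). Nearest to IGF1R were PDGFA (40.0 CPM in brain, 5.74 CPM in liver), TASP1 (40.8 and 5.51) and RASGRP2 (41.4 and 6.16). With 2 libraries this is a likeness of levels and ratios alone.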

How the data were processed

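The authors deposited 1 table with a brain and a liver column and a gene length in bp. That the deposited values are raw counts was read from the values, whole numbers with different totals, and all intervals rest on it. TopHat and the build Sscrofa10.2 (susScr3) are named, per the submitters' processing notes. No source used here gives the counting program or whether it used strand, so overlapping genes and near-identical copies may share reads. Rows bearing a member's symbol, and LOC rows whose product names that protein, were summed, except where the RefSeq gene list (assembly Sscrofa11.1, used for names and gene order alone) keeps the LOC number as its own locus. Other rows were named from the table or that list, and 6975 stayed unnamed. PAPPA was read from the row labelled PAPP-A.

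Libraries were scaled on the whole table by TMM (edgeR 4.0.16 under R 4.3.3), with factors of 1.47 for brain and 0.681 for liver; edgeR ran no test. DESeq2 1.42.0 gave the median-of-ratios scaling. Fold intervals are exact conditional binomial, shares have exact Clopper-Pearson intervals and ratios of ratios exact conditional odds ratio intervals (scipy 1.17.1). The calling code was checked on simulated counts, which says nothing about the tissues. Named genes are all 10 members and, from the pathway list, those at 4-fold or more and the 2 with the highest mean level of each group, plus the 3 nearest genes to the extreme members. 1 gene of the pathway list is not reported here. Members and lists were chosen with earlier results of these data known. The deposited length includes introns, so levels per transcript length were not computed.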

Additional observations from a re-analysis of the deposited data

How the results depend on the processing

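With 1 library per tissue no replicate could be left out. No paired analysis was possible because each tissue has 1 library and the replicate number given to both only names it. Between scalings, the median log2 ratio of all genes was 0.02 with TMM, 0.00086 with median of ratios, 0.47 without the 50 highest genes and 0.98 with plain library size. Relative to these medians IGF1 was at -0.86, -0.86, -1.002 and -0.96, and GHR at -2.48, -2.48, -2.53 and -2.38. Over 11 settings, 2 of 109 values of single members lost their 4-fold call (GHR and IGFBP5, as given above) and 1, that of IGF1, changed sign. These 109 leave out IGFBP5 with rows bearing the member symbol alone, which did not reach 1 CPM. There IGFBP5 also lost its call and changed sign, with a log2 ratio of -0.22 in place of 2.12. The number of members higher in brain was 1 with a pseudocount of 5 CPM, 1 with rows bearing the member symbol alone, and 0 at 8-fold; the number higher in liver ranged from 5 to 7. The counts with member symbols alone, with the rows left out of IGF2R and IGFALS, and with the ALB percentage subtracted from brain were added after the data were seen.

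The median of the members was -2.81 with median of ratios, -1.77 with plain library size, -2.44 without the 50 highest genes, -2.97 and -2.17 with pseudocounts of 0.1 and 5 CPM, and -3.14 with member symbols alone. For the pathway genes the median was -0.41, 0.68 and 0.090 under those scalings, -0.41 and -0.31 with those pseudocounts, -0.22 with no filter and -0.29 with a filter at 5 CPM. Pathway genes higher in liver numbered 2 with plain library size (4.08%, against 6.02% of all genes) and 12 with 0.1 CPM (25.0%, against 14.9% of all genes). Those higher in brain numbered 5 with plain library size (10.2%, against 24.1%) and 1 with 5 CPM (2.08%, against 7.91%). Of all genes, plain library size called 3816 higher in brain and 951 in liver, and 5 CPM called 1231 in brain and 1114 in liver. With the highest row per gene, brain shares were 39.9% for IGFBP2, 14.2% for IGFBP4, 17.7% for IGFBP5 and 21.7% for IGFBP6, and IGFBP5 took 0.175% in liver. These shifts in share follow from IGFBP5, the only gene of IGFBP1 to IGFBP6 with more than 1 row. Its highest row held 407 of its 691 brain counts, so the pool became smaller. The cause was not tested for any of the other shifts. Depth limits IGFBP1 and IGFALS in brain, at 4 and 6 counts.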
